A study of Homo sapiens with 20 samples.

Results

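The comparison asked in which genes DND41 cells answered the NBD peptide otherwise than CEM and HPB-ALL cells did. Its 12 arrays, of 20 in the whole series, were the ones from these 3 lines, whose columns share a single value format. The groups were DND41 with NBD peptide, DND41 with control peptide, CEM with NBD peptide, CEM with control peptide, HPB-ALL with NBD peptide and HPB-ALL with control peptide, with 2 arrays each and 16 h of peptide in all. DND41, CEM and HPB-ALL are established human lines of T-ALL, the acute lymphoblastic leukaemia of the T lineage. No statement rests on the dose, because the labels give it both in micromolar and in millimolar units. Whether the paired arrays of a group are separate cultures is not said either, so the p-values below describe only the spread between arrays, which may be technical.

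The NBD peptide carries the stretch of IKK through which the catalytic kinases IKKα and IKKβ bind the scaffold NEMO (IKKγ). It is used to block the canonical NF-κB pathway, in which the IKK complex marks IκB proteins for destruction so that NF-κB dimers can enter the nucleus. In T-ALL that pathway is studied downstream of Notch1 and its target Hes1, a repressor of the deubiquitinase CYLD that removes activating ubiquitin chains upstream of IKK. In a bulk sample, fewer cells of a type and less RNA per cell cannot be told apart, which holds for every level given here.

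For each gene the NBD effect of a line is the mean log2 intensity on its NBD arrays minus that on its control arrays. The quantity tested, called the DND41 difference below, is the NBD effect in DND41 minus the mean NBD effect of CEM and HPB-ALL. A negative value means that the peptide moved the gene further down, or less far up, in DND41. A gene was called when limma's Benjamini-Hochberg adjusted p, taken over 13111 genes, was below 0.05.

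The arrays separated first by line. Pearson correlations over the tested genes were 0.996 to 0.998 within a group and 0.892 to 0.912 between lines, and 12 of 12 arrays were closest to an array of their own line. All 12 T cell markers examined passed the level filter on at least 2 arrays, although CD2, a T cell adhesion receptor, lay below it in DND41 at a mean of 4.23 with NBD peptide and 4.14 with control peptide. Of 6 B cell markers examined 5 passed the filter on at least 2 arrays. CD79A, CD79B and CD22 passed on 12, BLK on 8 and PAX5 on 3, while MS4A1 (CD20) lay below it on all 12. The actin probe sets, whose 3′ minus 5′ signal is a readout of RNA integrity, did not move alike in the 3 lines. The NBD effect on this log2 gap was -0.15 in DND41, 0.32 in CEM and -0.06 in HPB-ALL. On the same gap of the GAPDH probe sets it was smaller, at 0.019 in DND41, 0.071 in CEM and -0.007 in HPB-ALL. The part of the actin gap in the gene results was tested only by adding it to the model, as given with the counts that follow.

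The DND41 difference was called for 255 of 13111 genes. Of these, 137 were higher (1.04% of genes tested) and 118 lower (0.9%), and 17 lay beyond 1 log2 unit. Against CEM alone 260 genes were called (1.98%), 149 of them higher (1.14%) and 111 lower (0.847%). Against HPB-ALL alone it was 135 (1.03%), 79 higher (0.603%) and 56 lower (0.427%). Both of these separate differences were called with a positive sign for 42 genes (0.32%) and with a negative sign for 33 (0.252%). The weakest call was CEBPB at a difference of -0.49, and the first gene outside was LRRC1 at 0.34. Within DND41 the NBD effect was called for 621 genes (4.74%), with 217 higher (1.66%) and 404 lower (3.08%). In CEM it was called for 309 (2.36%), with 82 higher (0.625%) and 227 lower (1.73%), and in HPB-ALL for 173 (1.32%), with 27 higher (0.206%) and 146 lower (1.11%). The mean effect of CEM and HPB-ALL was called for 686 genes (5.23%), with 118 higher (0.9%) and 568 lower (4.33%).

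These counts moved with single arrays. For the DND41 difference, without DND41 control array 1 there were 30 higher and 28 lower calls, without DND41 control array 2 37 and 42, and without DND41 NBD array 2 49 and 37. Leaving out CEM control array 2 gave 68 and 61, CEM NBD array 1 73 and 69, and CEM NBD array 2 95 and 80. Leaving out an HPB-ALL array gave 82 and 66 (control array 1), 80 and 62 (control array 2), 63 and 63 (NBD array 1) or 58 and 40 (NBD array 2). With the actin gap as a covariate EGR1 alone was called. All 255 genes kept their sign, and the median ratio of the difference to that without the covariate was 0.98. The median standard error was 1.66 times as large. The 255 genes were chosen on the same arrays, so their kept sign is no separate support.

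The separate counts moved too. Against CEM alone the count was 44 to 130 without any 1 array other than CEM control array 1 or DND41 NBD array 1. Against HPB-ALL alone it was 32 to 39 without any HPB-ALL array, 37 without DND41 control array 1, 49 without DND41 control array 2 and 52 without DND41 NBD array 2. The DND41 effect was called for 81 genes without DND41 control array 1, 139 without DND41 control array 2, 112 without DND41 NBD array 2 and 372 without either HPB-ALL NBD array. The CEM effect was called for 57, 63 and 47 genes without CEM control array 2, NBD array 1 and NBD array 2, for 148 without either DND41 control array, and for 169 and 130 without an HPB-ALL control or NBD array. The HPB-ALL effect was called for 31 to 61 genes without any HPB-ALL array, for 96 without either DND41 control array and for 115 without either CEM NBD array.

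**Figure D1:**
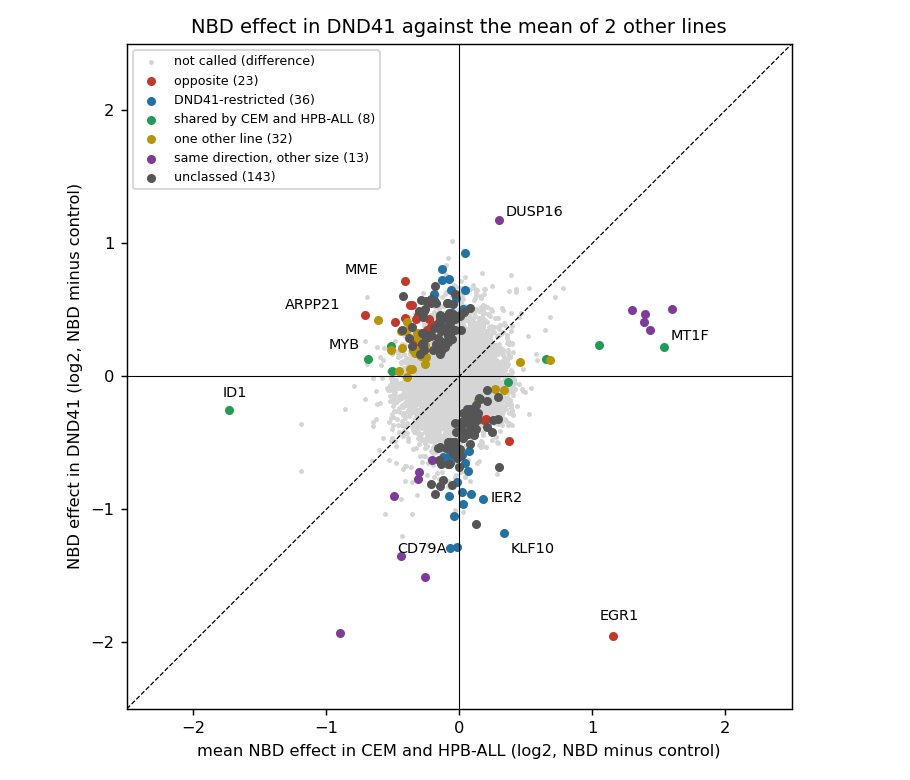
NBD effect in DND41 (vertical, log2, NBD minus control) against the mean NBD effect in CEM and HPB-ALL (horizontal, log2), 1 point per gene tested, with called genes coloured by class and the dashed line marking equal effects. EGR1 lies alone at the lower right, at -1.95 in DND41 against a mean above 1 in the other lines, and the 7 called metallothioneins sit to the right, with mean effects above 1 in CEM and HPB-ALL and effects of 0.22 to 0.51 in DND41.

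Called genes were sorted by how the lines answered. The opposite class holds genes called in DND41 and, with the other sign, in the mean of CEM and HPB-ALL, where CEM and HPB-ALL each also had the sign opposite to DND41. It had 23 genes, of which 4 fell in DND41 (0.0305% of genes tested) and 19 rose there (0.145%). Since the class is built from these calls, its directions are a description and carry no further test. The count ranged from 1 to 23 when single arrays were left out, and was 1 without DND41 control array 1, 4 without DND41 control array 2, 4 without DND41 NBD array 2 and 5 without HPB-ALL NBD array 1. It was 9 without CEM control array 2 or either HPB-ALL control array, 10 without HPB-ALL NBD array 2 and 13 without CEM NBD array 1.

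The 4 genes that fell in DND41 while rising in the mean of the other lines were EGR1, GADD45A, DNAJA1 and CD70. EGR1 is a zinc finger transcription factor induced within minutes by mitogen-activated kinases, and DNAJA1 is a co-chaperone of HSP70 induced by heat. Promoter windows are shown for EGR1 and DNAJA1, which belong to this class and have 1 window each in RefSeq (GRCh38.p14). They are shown for the motif marked in each. MYB and H2AC6, of the same class and also with 1 window each, are not shown. Windows run from 250 bases before to 50 bases after the start, on the plus strand. Capitals mark CArG boxes, the binding sequence of serum response factor, in EGR1 (chr5:138465229-138465528), and heat shock element cores, TTCNNGAA or GAANNTTC, in DNAJA1 (chr9:33025023-33025322).
EGR1: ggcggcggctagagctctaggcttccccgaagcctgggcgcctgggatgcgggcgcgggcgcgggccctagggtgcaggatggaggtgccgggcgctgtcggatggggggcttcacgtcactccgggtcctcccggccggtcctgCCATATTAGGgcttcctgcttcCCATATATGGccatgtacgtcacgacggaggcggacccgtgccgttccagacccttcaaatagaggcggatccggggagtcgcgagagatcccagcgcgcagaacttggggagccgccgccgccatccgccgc
DNAJA1: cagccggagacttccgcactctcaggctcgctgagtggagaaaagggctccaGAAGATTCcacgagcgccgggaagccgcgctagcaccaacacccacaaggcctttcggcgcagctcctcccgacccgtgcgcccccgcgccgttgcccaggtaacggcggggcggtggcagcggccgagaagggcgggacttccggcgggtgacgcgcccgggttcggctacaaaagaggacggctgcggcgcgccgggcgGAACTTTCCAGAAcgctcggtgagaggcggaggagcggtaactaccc
The EGR1 window held 2 CArG boxes, starting 105 and 83 bases before the start site, and 0.0313% of 35116 promoter windows held as many. The DNAJA1 window held 3 heat shock element cores, 2 of them overlapping, and 0.194% of windows held as many. The metal response element core described further on also matched 2 times in the EGR1 window (8.6% of windows held as many) and 1 time in that of DNAJA1. The CArG box and the heat shock core were added after the values had been seen. The 4 motifs chosen earlier were AP-1 (TGACTCA or TGAGTCA), CRE (TGACGTCA), the E-box (CACGTG) and the kappaB consensus, searched on both strands. None of them had a match in the windows of EGR1, DNAJA1, MYB and H2AC6, which were the opposite-class genes named here with exactly 1 window, out of 10 named. In all windows their shares were 4.95% for AP-1, 1.85% for CRE, 7.26% for the E-box and 11.3% for the kappaB consensus.

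EGR1 had the largest DND41 difference of all genes tested. Its log2 intensity was 8.56 and 8.43 on the DND41 NBD arrays, against 10.48 and 10.42 on the DND41 control arrays. In CEM it was 6.83 and 6.65 with NBD peptide, against 5.40 and 5.47 with control peptide. In HPB-ALL it was 8.93 and 8.89 with NBD peptide, against 7.84 and 7.95 with control peptide. The arrays did not overlap in any of the lines, and DND41 had the highest control level but, with NBD peptide, a level below that of HPB-ALL. EGR1 thus fell 3.87-fold in DND41 and rose 2.47-fold in CEM and 2.02-fold in HPB-ALL, a DND41 difference of -3.11 ± 0.10 (SE, limma, adjusted p = 2.7e-06). Its other probe sets gave -2.37 and -2.52, both called. The first had effects of 1.04 in CEM and 0.53 in HPB-ALL, and the second 0.06 in CEM and 0.86 in HPB-ALL, so the rise in CEM was not seen on that one. EGR1 stayed called under every alternative tried.

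GADD45A, a stress-induced regulator of growth arrest and of p38 kinase, had its highest control level in DND41. It read 10.80 and 10.71 on the DND41 NBD arrays, against 11.27 and 11.22 on the control arrays. CEM showed 9.57 and 9.37 with NBD peptide, against 8.82 and 8.96 with control peptide. HPB-ALL showed 10.78 and 10.76 with NBD peptide, against 10.57 and 10.64 with control peptide. The arrays were apart in each line, downwards in DND41 and upwards in both others, and the DND41 difference was -0.86 ± 0.10 (limma, adjusted p = 0.00632). The HPB-ALL effect of 0.17 was not called on its own (limma, adjusted p = 0.387).

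DNAJA1 fell by 0.32 log2 in DND41, at 11.99 and 11.98 with NBD peptide, against 12.30 and 12.31 with control peptide. In CEM it rose, at 11.78 and 11.84 with NBD peptide, against 11.44 and 11.43 with control peptide. In HPB-ALL it stood at 12.54 and 12.60 with NBD peptide, against 12.54 and 12.53 with control peptide, so those groups met at 12.54. The DND41 difference was -0.52 ± 0.06 (limma, adjusted p = 0.00633), with -0.39 on its other probe set, which was not called. CD70, the ligand of the costimulatory receptor CD27, differed by -0.51 ± 0.07 (limma, adjusted p = 0.0122). It was not called without DND41 control array 1, DND41 control array 2 or DND41 NBD array 2, with adjusted p up to 0.0793.

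Among the 19 genes on the other side, which rose in DND41 and fell in the mean of the other lines, the largest differences were those of ARPP21, MME, ABLIM1, H2AC6, MYB and P2RY8. MME encodes CD10, a peptidase on the surface of early lymphoid cells. It read 9.36 and 9.43 on the DND41 NBD arrays, against 8.71 and 8.64 on the control arrays. CEM gave 6.65 and 6.67 with NBD peptide, against 6.76 and 7.11 with control peptide. HPB-ALL gave 7.78 and 7.96 with NBD peptide, against 8.49 and 8.33 with control peptide. The arrays did not overlap in any line, and the DND41 difference was 1.13 ± 0.14 (limma, adjusted p = 0.00809), with 0.98 on the other probe set, also called, where HPB-ALL had -0.05. Neither CEM (-0.28) nor HPB-ALL (-0.54) was called alone.

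MYB, a transcription factor required for early T cell development and overexpressed in part of T-ALL, read above 10 on all 12 arrays. Its values were 12.33 and 12.36 on the DND41 NBD arrays, against 11.91 and 11.97 on the control arrays. CEM had 12.33 and 12.46 with NBD peptide, against 12.82 and 12.83 with control peptide. HPB-ALL had 10.29 and 10.23 with NBD peptide, against 10.81 and 10.80 with control peptide. MYB rose in DND41 by 0.41 and fell in CEM by 0.42 and in HPB-ALL by 0.55, each called by limma (adjusted p = 0.00938, 0.0124 and 0.00476). The DND41 difference was 0.89 ± 0.07 (limma, adjusted p = 0.002), but the other MYB probe set gave 0.27 and was not called (adjusted p = 0.441). Its effect in DND41 was -0.10, so the rise there was not seen on it.

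ARPP21, a cyclic AMP regulated phosphoprotein gene that hosts the lymphoid microRNA gene MIR128-2, differed most on this side. It read 10.44 and 10.75 on the DND41 NBD arrays, against 10.13 and 10.15 on the control arrays. CEM gave 8.65 and 8.64 with NBD peptide, against 9.36 and 9.28 with control peptide. HPB-ALL gave 7.33 and 7.26 with NBD peptide, against 7.99 and 8.08 with control peptide. The groups were apart in each line, and the difference was 1.17 ± 0.11 (limma, adjusted p = 0.00311). Its 4 other probe sets above the filter gave 0.55 to 1.04, none of them called. Their effects in DND41 were 0.025, 0.085, 0.781 and 0.484, so the rise there was hardly seen on the first and second.

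The remaining named genes of this side had smaller differences. ABLIM1, an actin-binding LIM protein, differed by 0.91 ± 0.09 (limma, adjusted p = 0.00295), and its other probe set by 0.57, not called. The histone H2A gene H2AC6 differed by 0.89 ± 0.10 (adjusted p = 0.00515), at 12.07 and 12.04 with NBD peptide in DND41, against 11.54 and 11.49 with control peptide. P2RY8, a G protein-coupled receptor of lymphocytes, differed by 0.85 ± 0.08 (adjusted p = 0.00265), rising by 0.44 in DND41 and falling by 0.62 in CEM. The other 13 genes of this side differed by 0.52 to 0.77.

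**Figure D2:**
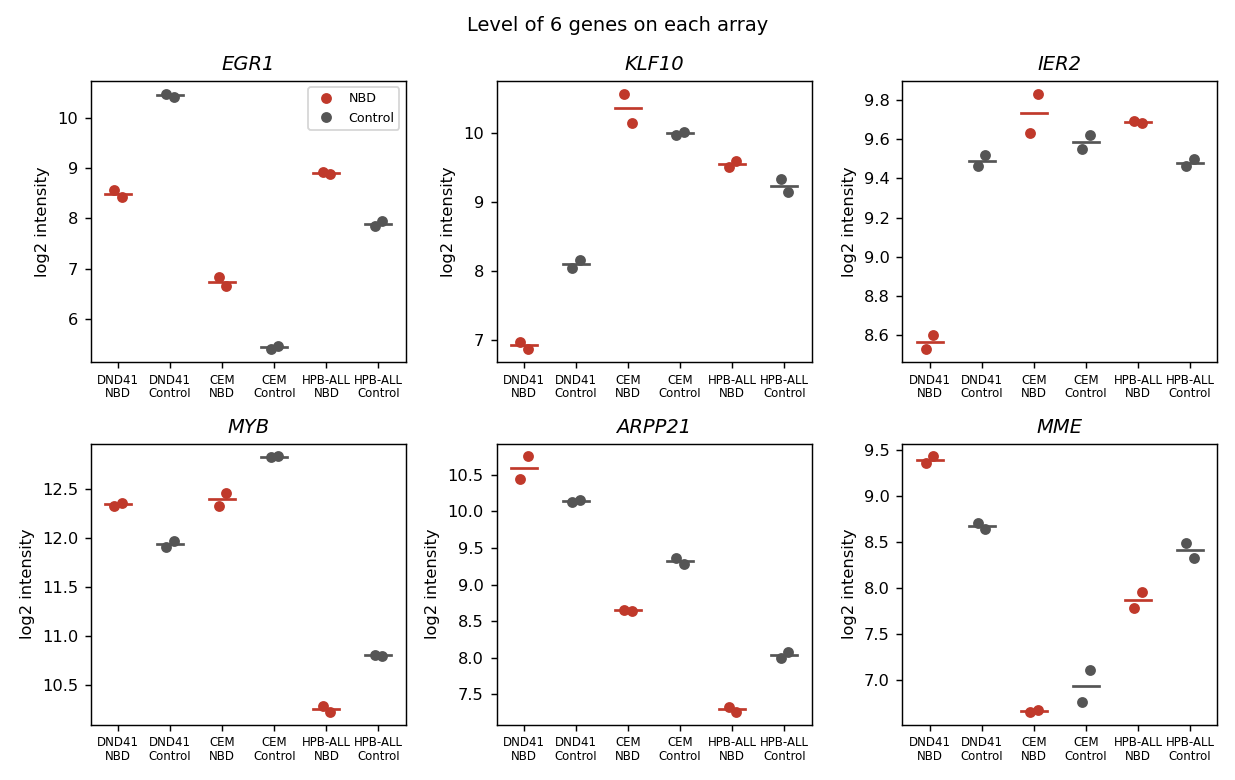
Level of EGR1, KLF10, IER2, MYB, ARPP21 and MME on each of the 12 arrays (log2 intensity, 1 point per array, bars at the group mean, vertical axes not starting at 0). In DND41 the NBD arrays lie below the control arrays for EGR1, KLF10 and IER2 and above them for MYB, ARPP21 and MME, and in CEM and HPB-ALL each of these 6 genes has its NBD mean on the other side of the control mean.

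The DND41-restricted class holds genes called in DND41, not in CEM, HPB-ALL or their mean, and different from each of those lines. It had 36 genes, 16 higher (0.122% of genes tested) and 20 lower (0.153%). The count was between 9 and 49 when single arrays were left out. It was 9 without DND41 control array 1, 12 without DND41 control array 2, 14 without DND41 NBD array 2, 13 without CEM NBD array 1, 14 without CEM control array 2 and 11 without CEM NBD array 2. Without HPB-ALL control array 1, control array 2, NBD array 1 and NBD array 2 it was 13, 17, 12 and 10.

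KLF10 and IER2 were the largest restricted differences among immediate-early genes. KLF10, a zinc finger factor induced early by TGF-β, read 6.98 and 6.87 on the DND41 NBD arrays, against 8.04 and 8.16 on the control arrays. CEM gave 10.57 and 10.15 with NBD peptide, against 9.98 and 10.01 with control peptide. HPB-ALL gave 9.51 and 9.60 with NBD peptide, against 9.34 and 9.14 with control peptide. KLF10 fell 2.26-fold in DND41, while the effects of 0.36 in CEM and 0.31 in HPB-ALL were not called, and the difference was -1.51 ± 0.16 (limma, adjusted p = 0.00425). IER2, a nuclear protein of the growth factor response, read 8.53 and 8.60 on the DND41 NBD arrays, against 9.46 and 9.52 on the control arrays. In CEM it was 9.63 and 9.83 with NBD peptide, against 9.55 and 9.62 with control peptide. In HPB-ALL it was 9.69 and 9.68 with NBD peptide, against 9.46 and 9.5 with control peptide. Control levels of IER2 were alike in the 3 lines, and the DND41 difference was -1.10 ± 0.09 (adjusted p = 0.002).

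The immediate-early and AP-1 list had 3 of 24 tested members called, all lower: EGR1, IER2 and KLF10. Over all genes tested 0.9% were called lower by the DND41 difference and 1.04% higher. The other 21 members included JUN, the DNA-binding AP-1 subunit, which rose in all 3 lines. JUN stood at 11.77 and 11.88 with NBD peptide in DND41, against 11.17 and 11.16 with control peptide. The JUN effects were 0.66 in DND41, 0.97 in CEM and 0.58 in HPB-ALL, and its DND41 difference was -0.12 (limma, adjusted p = 0.377). The list's median difference was -0.12 beside -0.003 over all genes, and was 0.04 with the actin covariate, so the list as a whole had no settled direction.

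The other restricted genes on the lower side were of several kinds. CD79A, the signalling chain of the B cell receptor that some T-ALL cells express, read 10.22 and 10.12 on the DND41 NBD arrays, against 11.45 and 11.46 on the control arrays. In CEM it lay between 6.34 and 6.71 and in HPB-ALL between 5.68 and 5.96, with overlapping groups in both. The CD79A difference was -1.26 ± 0.16 (limma, adjusted p = 0.00902), and the call was lost without DND41 control array 1 or DND41 NBD array 2, with adjusted p up to 0.0526. Of the other B cell markers in DND41, CD79B averaged 6.02 with NBD peptide and 6.12 with control peptide and CD22 averaged 7.16 with NBD peptide and 7.17 with control peptide. BLK averaged 7.57 with NBD peptide and 7.56 with control peptide and PAX5 4.67 with NBD peptide and 4.93 with control peptide, and none of these effects was called. MMRN1, a secreted adhesion protein, read 5.37 and 5.66 with NBD peptide in DND41, against 6.88 and 6.73 with control peptide, but was below the filter on all arrays of CEM and HPB-ALL, so a response there could not be read. GALNT6, an enzyme of mucin-type glycosylation, differed by -0.99 ± 0.10 (adjusted p = 0.00403), but its HPB-ALL arrays lay at the filter, so a response there could not be read. PALD1, a phosphatase-like gene, differed by -1.01 ± 0.13 (adjusted p = 0.00809). PALD1 was not called without DND41 control array 1 (adjusted p = 0.0519).

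TRIB3, a pseudokinase induced by the transcription factor ATF4, read 10.36 and 10.18 on the DND41 NBD arrays, against 11.16 and 11.12 on the control arrays. CEM gave 12.60 and 12.63 with NBD peptide, against 12.87 and 12.93 with control peptide. HPB-ALL gave 10.91 and 10.99 with NBD peptide, against 10.59 and 10.67 with control peptide. The arrays were apart downwards in DND41 and CEM and upwards in HPB-ALL, and the DND41 difference was -0.89 ± 0.09 (limma, adjusted p = 0.00295). SLC7A11, the cystine transporter, differed by -0.63 ± 0.07 (adjusted p = 0.00632) and SLC7A5, a transporter of large neutral amino acids, by -0.61 ± 0.08 (adjusted p = 0.0122). PKM, the pyruvate kinase of glycolysis, read 8.12 and 8.16 with NBD peptide in DND41, against 8.88 and 8.72 with control peptide, and differed by -0.70 ± 0.08 (adjusted p = 0.00665). Other probe sets gave -0.60 for TRIB3 and -0.58 for PKM, neither called. Those of SLC7A11 gave -0.66, called, and -0.17, not called. SLC7A5 was not called without DND41 control array 1 (adjusted p = 0.0764).

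On the higher side of the restricted class stood PIK3IP1, an inhibitor of PI3 kinase, and TXNIP, which binds thioredoxin and limits glucose uptake. PIK3IP1 read 9.02 and 9.13 on the DND41 NBD arrays, against 8.17 and 8.14 on the control arrays. In CEM it was 6.60 and 6.84 with NBD peptide, against 6.77 and 6.77 with control peptide. In HPB-ALL it was 7.60 and 7.57 with NBD peptide, against 7.45 and 7.45 with control peptide. PIK3IP1 rose 1.9-fold in DND41, with a difference of 0.89 ± 0.10 (limma, adjusted p = 0.00496), and its other probe set gave 0.62, not called. TXNIP read 12.06 and 12 with NBD peptide in DND41, against 11.38 and 11.37 with control peptide. CEM arrays lay at 12.17 and 12.17 with NBD peptide, against 12.24 and 12.24 with control peptide. HPB-ALL arrays lay at 8.73 and 8.71 with NBD peptide, against 8.75 and 8.80 with control peptide. TXNIP was thus apart upwards in DND41 and slightly downwards in the other lines, with a difference of 0.72 ± 0.06 (adjusted p = 0.00208) and a second called probe set at 0.70. That probe set had effects of 0.83 in DND41, -0.17 in CEM and 0.44 in HPB-ALL, so the small HPB-ALL effect did not hold on it. The remaining probe set gave 0.88, not called, with 0.08 in HPB-ALL. Both genes belong to the FOXO, KLF2 and quiescence list, where 2 of 19 members were called, both higher, beside 1.04% of all genes.

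DNTT, the terminal transferase that adds bases to antigen receptor genes, read 9.04 and 9.08 on the DND41 NBD arrays, against 8.39 and 8.48 on the control arrays. In CEM it read 7.16 and 7.07 with NBD peptide, against 7.24 and 7.29 with control peptide. In HPB-ALL it read 7.63 and 7.37 with NBD peptide, against 7.74 and 7.72 with control peptide. The arrays were apart upwards in DND41 and downwards in both other lines, where neither effect was called. The DNTT difference was 0.81 ± 0.10 (limma, adjusted p = 0.00869), 1.36 and called on a second probe set, and the call was lost without DND41 control array 1 (adjusted p = 0.0562). RASGRP1, which couples the T cell receptor to Ras, read 8.52 and 8.58 with NBD peptide in DND41, against 7.85 and 7.78 with control peptide, and differed by 0.81 ± 0.07 (adjusted p = 0.00208). ST3GAL5, the synthase of the ganglioside GM3, differed by 0.76 ± 0.10 (adjusted p = 0.00809), and was not called without DND41 control array 1 (adjusted p = 0.0519). The antisense transcript HHIP-AS1 differed by 0.86 ± 0.10 (adjusted p = 0.00632). VANGL2, a membrane protein of planar cell polarity, differed by 0.93 ± 0.11 (adjusted p = 0.00632), but CEM and HPB-ALL were below the filter on all arrays.

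The T lineage list had 3 of 34 tested members called higher (DNTT, LEF1, RAG1) and 3 lower (CD3D, CD7, LAT), with a median difference of 0.16. Over all genes the shares were 1.04% higher and 0.9% lower. RAG1, a subunit of the recombinase of antigen receptor genes, was at 11.97 and 12.01 on the DND41 NBD arrays, against 11.41 and 11.35 on the control arrays. CEM showed 7.54 and 7.40 with NBD peptide, against 7.29 and 7.45 with control peptide. HPB-ALL showed 7.84 and 7.84 with NBD peptide, against 8.82 and 8.75 with control peptide. RAG1 rose in DND41, fell in HPB-ALL and overlapped in CEM, so it met the rule of no class, and its difference was 1.03 ± 0.09 (limma, adjusted p = 0.00208). LAT, the adaptor downstream of the T cell receptor, read 6.77 and 6.80 with NBD peptide in DND41, against 7.43 and 7.36 with control peptide, and differed by -0.49 ± 0.06 (adjusted p = 0.00902). Its other probe set gave -0.42, not called. LAT was not called without DND41 control array 1 (adjusted p = 0.0665). LEF1, a partner of β-catenin, differed by 0.42 (adjusted p = 0.0235), and of the 3 lines its effect was called in HPB-ALL, where it fell by 0.51. It was not called without CEM control array 2, either DND41 control array, DND41 NBD array 2, HPB-ALL control array 1 or either HPB-ALL NBD array, with adjusted p up to 0.104, and its other probe sets gave 0.72 and -0.15, not called. Without DND41 control array 1 the list had 1 higher and 0 lower calls, and without DND41 control array 2, DND41 NBD array 2 or HPB-ALL NBD array 2 it had 2 higher and 1 lower.

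**Figure D3:**
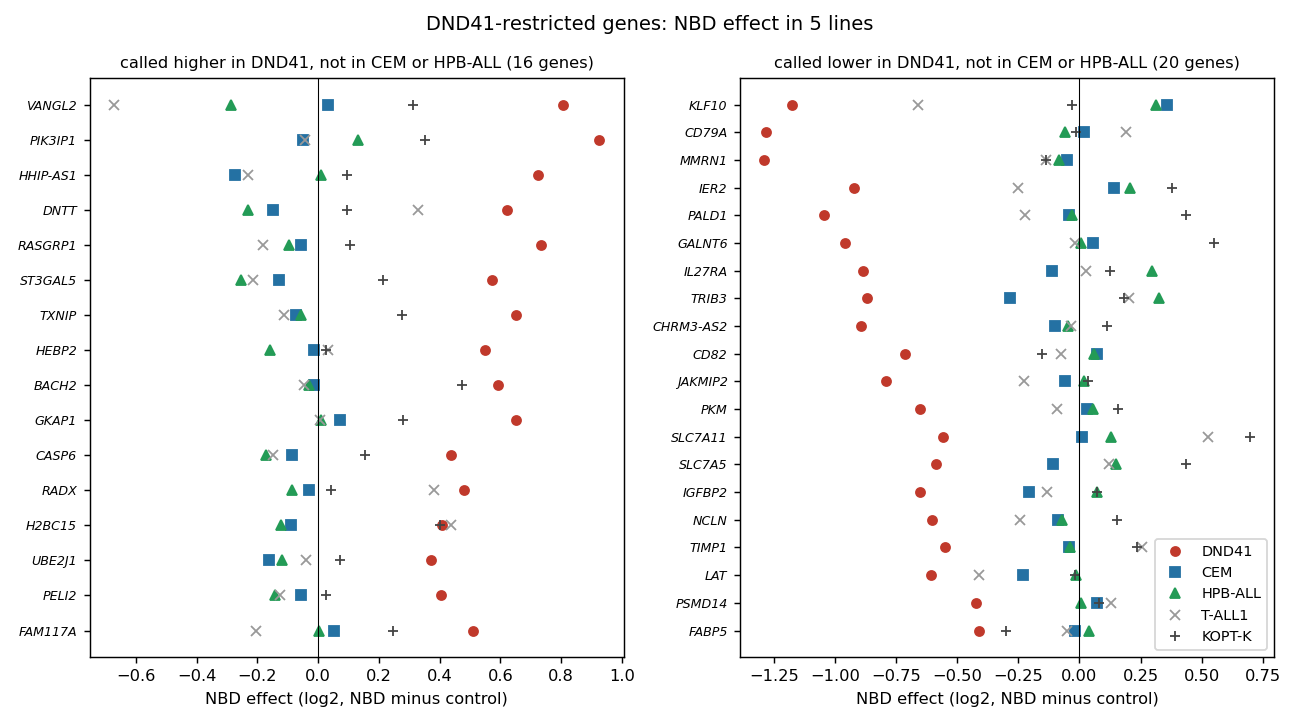
NBD effect (log2, NBD minus control) of the 36 DND41-restricted genes in DND41, CEM, HPB-ALL, T-ALL1 and KOPT-K, with 16 genes called higher on the left and 20 called lower on the right, in order of the DND41 difference. DND41 effects run between 0.37 and 0.93 on the left and between -1.29 and -0.41 on the right, and KOPT-K effects are above 0 for 16 of the 16 genes on the left.

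The lines T-ALL1 and KOPT-K, whose values have another format and were fitted apart on their 8 arrays, had no part in the choice of classes. In KOPT-K the 16 higher restricted genes had NBD effects of 0.03 to 0.47 with a median of 0.18. All 16 were above 0, beside 47% of genes tested. In T-ALL1 the same genes ran between -0.67 and 0.44, with 5 above 0, beside 46.9% of genes tested. Of the 20 lower restricted genes, 14 had an effect above 0 in KOPT-K and 7 in T-ALL1. None of these 36 genes was called in either line, where 33 genes were called in KOPT-K (0.252%), 27 higher (0.206%) and 6 lower (0.0458%), and 12 in T-ALL1 (0.0915%), 2 higher (0.0153%) and 10 lower (0.0763%). The T-ALL1 count was 1363 without T-ALL1 control array 2, 6 without T-ALL1 control array 1, 1 without either T-ALL1 NBD array, and 3 or 5 without a KOPT-K control or NBD array. The KOPT-K count was 2, 3, 1 and 10 without KOPT-K control array 1, control array 2, NBD array 1 and NBD array 2, and 18 without either T-ALL1 NBD array. The actin gap of the T-ALL1 control arrays was 2.61 ± 0.78 (SD, n = 2) beside 1.03 ± 0.06 (SD, n = 2) on its NBD arrays, and its part in the T-ALL1 effects was not tested. EGR1 had an effect of 0.21 in T-ALL1 (limma, adjusted p = 0.708) and of 0.73 in KOPT-K (adjusted p = 0.489). GADD45A rose by 1.19 in KOPT-K (adjusted p = 0.00632) and had an effect of -0.17 in T-ALL1.

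The third class holds genes called with one sign in both CEM and HPB-ALL and not called in DND41. It had 8 genes, 4 with a lower DND41 difference (0.0305% of genes tested) and 4 with a higher one (0.0305%), and between 5 and 15 when single arrays were left out. The count was 5 without CEM NBD array 1, CEM NBD array 2 or HPB-ALL control array 2, and 15 without DND41 NBD array 1. The lower ones were MT1F, MT1E, HMGCS1 and MASP2, and the higher ones ID1, CD84, IKZF2 and TMT1A.

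Metallothioneins are small cysteine-rich proteins that bind zinc and copper, and their genes are switched on by the zinc sensor MTF1 at metal response elements. Promoter windows of MT1X (chr16:56682220-56682519) and MT2A (chr16:56608334-56608633) from RefSeq (GRCh38.p14, plus strand) are shown because the group moved together. Both genes and the motif were chosen after the values had been seen. Capitals mark metal response element cores, TGCACNC or TGCGCNC on either strand.
MT1X: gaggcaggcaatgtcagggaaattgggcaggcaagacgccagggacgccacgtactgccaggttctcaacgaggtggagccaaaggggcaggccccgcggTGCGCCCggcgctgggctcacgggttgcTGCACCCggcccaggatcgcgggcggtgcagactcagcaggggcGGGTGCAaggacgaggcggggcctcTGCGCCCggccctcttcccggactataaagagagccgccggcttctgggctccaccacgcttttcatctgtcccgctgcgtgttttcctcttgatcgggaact
MT2A: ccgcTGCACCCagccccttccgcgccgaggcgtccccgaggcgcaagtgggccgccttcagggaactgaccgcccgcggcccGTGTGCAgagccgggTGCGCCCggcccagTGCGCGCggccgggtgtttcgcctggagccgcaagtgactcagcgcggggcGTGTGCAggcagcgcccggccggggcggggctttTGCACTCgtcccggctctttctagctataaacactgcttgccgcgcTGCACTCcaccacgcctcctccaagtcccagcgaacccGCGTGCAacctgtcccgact
The MT1X window held 4 cores, and 0.601% of windows held as many. The MT2A window held 8 cores, and 0.0199% of windows held as many, while 29.6% of windows held at least 1. MT2A also held 1 AP-1 match, TGACTCA, left in lower case.

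Of 11 tested genes in the metallothionein and zinc list, 7 were called lower by the DND41 difference, beside 0.9% of all genes, and 0 higher. The difference was below 0 for 11 of 11, beside 6635 of all 13111 genes, with a median of -0.81 beside -0.003 over all genes. The 7 were MT1F, MT1X, MT1G, MT2A, MT1H, MT1E and MT1HL1. MT1F read 9.14 and 8.88 on the DND41 NBD arrays, against 8.83 and 8.74 on the control arrays. CEM gave 11.31 and 11.37 with NBD peptide, against 9.95 and 10 with control peptide. HPB-ALL gave 9.81 and 9.86 with NBD peptide, against 8.22 and 8.02 with control peptide. MT1F rose 2.58-fold in CEM and 3.29-fold in HPB-ALL, its DND41 effect of 0.22 was not called (limma, adjusted p = 0.232), and the difference was -1.32 ± 0.12 (adjusted p = 0.00235). A second MT1F probe set gave -0.68, not called.

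MT2A, the main isoform in many tissues, read 11.36 and 11.22 on the DND41 NBD arrays, against 10.93 and 10.84 on the control arrays. CEM showed 12.89 and 13.12 with NBD peptide, against 11.83 and 11.79 with control peptide. HPB-ALL showed 12.02 and 11.98 with NBD peptide, against 10.48 and 10.37 with control peptide. MT2A rose in all 3 lines, by 0.41 in DND41, 1.20 in CEM and 1.58 in HPB-ALL, and its difference was -0.98 ± 0.11 (limma, adjusted p = 0.00515). MT1X likewise rose by 0.51 in DND41, 1.28 in CEM and 1.92 in HPB-ALL, with a difference of -1.09 ± 0.13 (adjusted p = 0.00632). MT1G differed by -1.09 ± 0.10 (adjusted p = 0.00265) and MT1E by -0.81 ± 0.08 (adjusted p = 0.00295). The zinc exporter gene SLC30A1, another MTF1 target that was picked after its values had been seen, rose in CEM by 0.26 and in HPB-ALL by 0.32, and its difference of -0.23 was not called (adjusted p = 0.121). Median effects over the 11 genes were 0.24 in DND41, 1.20 in CEM, 1.40 in HPB-ALL, 0.19 in T-ALL1 and 1.28 in KOPT-K. These probe sets can cross-hybridise between near-identical metallothionein genes, so the 7 calls may not be separate measurements. With the actin covariate 0 of the 7 were called.

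**Figure D4:**
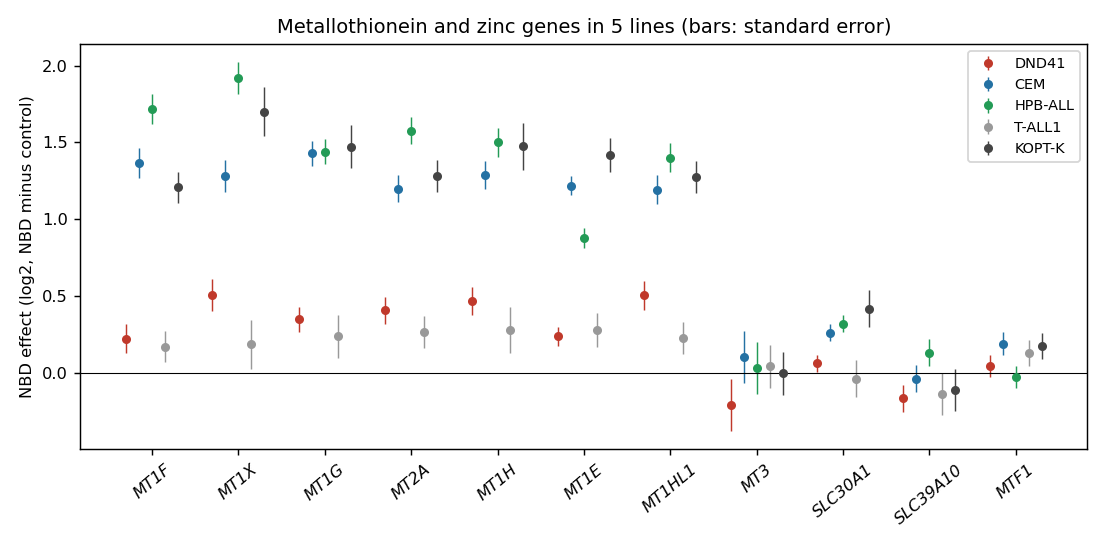
NBD effect (log2, NBD minus control, bars are the standard error) of the 11 tested genes of the metallothionein and zinc list in 5 lines. For the 7 called metallothioneins CEM, HPB-ALL and KOPT-K lie between about 0.88 and 1.92, while DND41 and T-ALL1 lie at or below 0.51.

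The other genes of the third class moved by less, except ID1. ID1, a dominant inhibitor of E protein transcription factors, read 5.30 and 5.12 on the DND41 NBD arrays, against 5.42 and 5.49 on the control arrays. CEM gave 6.24 and 6.46 with NBD peptide, against 8.93 and 9.07 with control peptide. HPB-ALL gave 7.69 and 7.62 with NBD peptide, against 8.48 and 8.45 with control peptide. ID1 fell 6.28-fold in CEM and 1.75-fold in HPB-ALL, while DND41, where control arrays were already near the level filter of 4.95, had an effect of -0.25 that was not called. The ID1 difference was 1.48 ± 0.11 (limma, adjusted p = 0.002), called against CEM (adjusted p = 0.000189) but not against HPB-ALL (adjusted p = 0.104). Its relative ID3 fell in DND41 (-0.71) and in CEM (-2.31) and had an effect of -0.06 in HPB-ALL, so its difference was 1.60 against CEM and -0.65 against HPB-ALL, each called, and 0.48 against their mean, not called (adjusted p = 0.06).

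HMGCS1, the synthase that feeds the mevalonate pathway, rose by 0.90 in CEM and 0.41 in HPB-ALL. Its DND41 difference was -0.52 ± 0.07 (limma, adjusted p = 0.00902), with -0.39 on the other probe set, not called. It was not called without DND41 control array 1 (adjusted p = 0.0634). The cholesterol list had 3 of 23 members called lower (HMGCS1, MSMO1, SQLE), beside 0.9% of all genes, and 0 higher. The CEM effect was called higher for 11 of its members, beside 0.625% of all genes. With single arrays left out the list had 0 to 2 calls, with 0 without DND41 control array 1 and 1 without DND41 control array 2, DND41 NBD array 2 or HPB-ALL NBD array 2. CD84, an adhesion receptor of the SLAM family, differed by 0.82 ± 0.11 (adjusted p = 0.00902) and IKZF2, the factor Helios, by 0.75 ± 0.11 (adjusted p = 0.0174). In HPB-ALL the CD84 intensities were 23.6 and 21.9 with NBD peptide, against 33.9 and 39.7 with control peptide. They crossed the filter intensity of 30.86, so the size of the fall there is uncertain. Other probe sets of CD84 gave 0.02 to 0.50, none called. CD84 was not called without DND41 control array 1 or DND41 NBD array 2 (adjusted p up to 0.056). IKZF2 and TMT1A were not called without either DND41 control array or DND41 NBD array 2 (adjusted p up to 0.0822 for IKZF2 and 0.0719 for TMT1A). MASP2, a serine protease of the lectin complement pathway, differed by -0.41 ± 0.08 (adjusted p = 0.0404), was not called without 10 of the 12 arrays (adjusted p up to 0.165) and had another probe set at 0.05.

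Genes called with one sign in DND41 and in the mean of the other lines numbered 1 with a higher DND41 difference (0.00763% of genes tested) and 12 with a lower one (0.0915%). A further 27 higher (0.206%) and 5 lower (0.0381%) genes were called in only one of CEM and HPB-ALL and not in DND41, and 70 higher (0.534%) and 73 lower (0.557%) met no class rule. Among those of one sign, CXXC5 and CD300A fell furthest in DND41. CXXC5, a CpG-binding zinc finger protein, read 7.98 and 7.97 on the DND41 NBD arrays, against 9.53 and 9.43 on the control arrays. CEM gave 8.49 and 8.52 with NBD peptide, against 8.66 and 8.77 with control peptide. HPB-ALL gave 8.61 and 8.59 with NBD peptide, against 8.89 and 8.94 with control peptide. The NBD arrays lay below the control arrays in each line, and the difference was -1.25 ± 0.07 (limma, adjusted p = 0.000405), with 2 further probe sets called at -0.99 and -1.26. CD300A, an inhibitory receptor of leukocytes, fell by 1.93 in DND41 and 1.54 in HPB-ALL but not by a called amount in CEM (-0.26), and differed by -1.03 ± 0.13 (adjusted p = 0.00869). CD300A was not called without DND41 control array 1 (adjusted p = 0.0528). DUSP16, a phosphatase that acts on JNK and p38, differed by 0.88 ± 0.10 (adjusted p = 0.00645), but its DND41 control arrays at 4.30 and 4.54 were below the filter and its other probe sets gave -0.05 and 0.04.

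Lists of protein quality control genes had calls on the lower side and 0 on the higher. The proteasome degrades ubiquitin-tagged proteins, IκBα among them. Of 29 tested proteasome genes 8 were called lower, beside 0.9% of all genes, and 0 higher. The difference was below 0 for 28 of 29, beside 6635 of all 13111 genes, with a median of -0.23. PSMB2, a subunit of the catalytic core, read 12.36 and 12.28 on the DND41 NBD arrays, against 12.83 and 12.79 on the control arrays. CEM gave 12.48 and 12.56 with NBD peptide, against 12.39 and 12.41 with control peptide. HPB-ALL gave 12.27 and 12.31 with NBD peptide, against 12.46 and 12.47 with control peptide. PSMB2 was apart downwards in DND41 and HPB-ALL and upwards in CEM, and differed by -0.46 ± 0.07 (limma, adjusted p = 0.014), with -0.16 and -0.08 on other probe sets, not called. PSMD14, the deubiquitinase of the proteasome lid, differed by -0.46 ± 0.07 (adjusted p = 0.0148), and PSMA3, a ring subunit, by -0.45 ± 0.07 (adjusted p = 0.0162). Both NBD arrays lay below both control arrays for 29 of 29 genes in DND41, beside 28.2% of all genes, for 2 in CEM (28.9%) and for 13 in HPB-ALL (29.3%). They lay above for 17 in CEM (21%), 0 in DND41 (22.2%) and 0 in HPB-ALL (21.1%). The DND41 effect itself was called lower for 15 of the 29, beside 3.08% of all genes.

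The proteasome calls rested on few arrays. There were 0 without DND41 control array 1, DND41 control array 2 or DND41 NBD array 2, 3 without HPB-ALL NBD array 2, 5 without either CEM control array, either CEM NBD array, HPB-ALL control array 1 or HPB-ALL NBD array 1, and 6 otherwise, while the list median stayed between -0.28 and -0.21. PSMB2, PSMD14 and PSMA3 were each not called without any of those first 3 arrays, with adjusted p up to 0.0869, 0.0921 and 0.0921, and PSMA3 also without HPB-ALL NBD array 2.

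Cytosolic heat shock genes had 5 of 15 members called lower, beside 0.9% of all genes, and 0 higher. The difference was below 0 for 15 of 15, beside 6635 of all 13111 genes, with a median of -0.29. The 5 were DNAJA1, CHORDC1, STIP1, HSP90AA1 and HSPH1, all chaperones or co-chaperones of HSP70 and HSP90. HSP90AA1, the inducible HSP90, was picked after its values had been seen. It read 13.50 and 13.51 on the DND41 NBD arrays, against 13.77 and 13.73 on the control arrays. CEM gave 13.98 and 13.92 with NBD peptide, against 13.83 and 13.82 with control peptide. HPB-ALL gave 13.87 and 13.87 with NBD peptide, against 13.82 and 13.87 with control peptide. Its level was apart downwards in DND41 and upwards in CEM, and the difference was -0.32 ± 0.06 (limma, adjusted p = 0.0387). STIP1, which links HSP70 to HSP90, differed by -0.44 ± 0.07 (adjusted p = 0.0259) and CHORDC1, an HSP90 co-chaperone, by -0.67 ± 0.12 (adjusted p = 0.0325). The other STIP1 probe set gave -0.205, not called, with effects of -0.238 in DND41, -0.246 in CEM and 0.18 in HPB-ALL. Both NBD arrays lay below both control arrays for 12 of the 15 genes in DND41 (28.2% of all genes), 5 in CEM (28.9%) and 4 in HPB-ALL (29.3%). They lay above for 0 in DND41 (22.2%), 8 in CEM (21%) and 4 in HPB-ALL (21.1%). The list kept 5 calls without CEM NBD array 2 and 3 without CEM control array 1. It had 2 without CEM NBD array 1, DND41 NBD array 1, HPB-ALL control array 1 or HPB-ALL NBD array 1, and 1 without any of the other arrays. STIP1 and CHORDC1 each lost their call without 8 of the 12 arrays, with adjusted p up to 0.129 and 0.118.

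**Figure D5:**
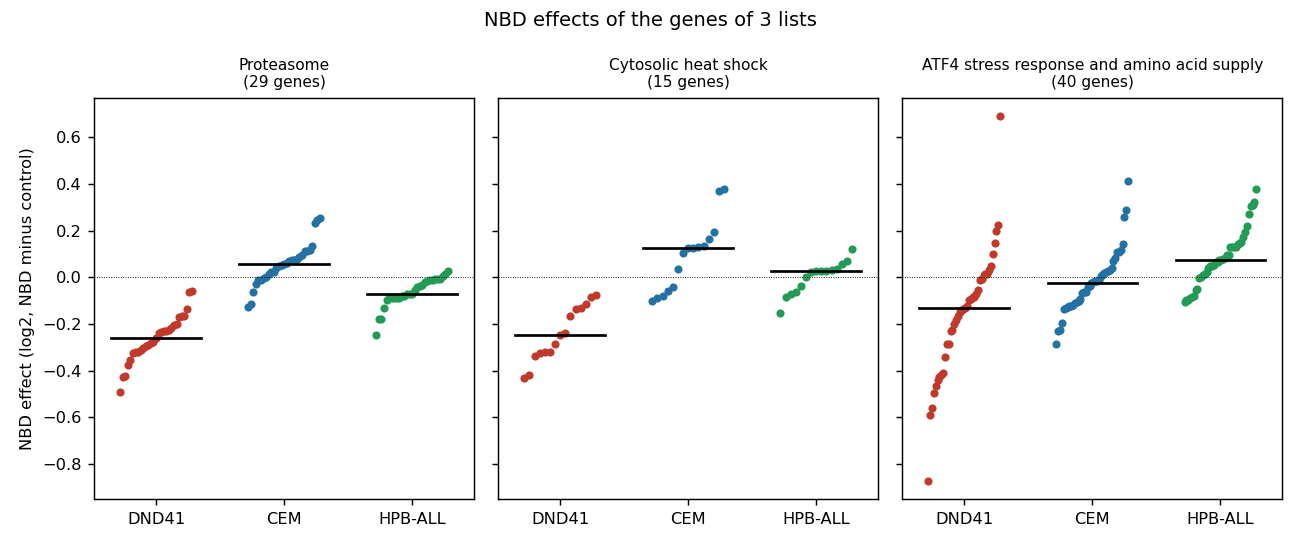
NBD effects (log2, NBD minus control) of the tested genes of the proteasome, cytosolic heat shock and ATF4 lists in DND41, CEM and HPB-ALL, 1 point per gene in rising order, bars at the median. The DND41 medians are -0.26, -0.25 and -0.13, and 29 of 29 proteasome genes and 15 of 15 heat shock genes lie below 0 in DND41.

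Genes of amino acid supply and of the oxidative stress response followed in smaller number. The ATF4 list had 6 of 40 members called lower (TRIB3, SLC7A11, SLC7A5, IARS1, SLC7A1, CEBPB) and 0 higher, with a median of -0.16. The NRF2 list had 4 of 17 called lower (SLC7A11, PRDX1, SQSTM1, TXNRD1) and 0 higher, with a median of -0.25. Beside both lists, 0.9% of all genes were called lower and 1.04% higher. PRDX1, a peroxide-reducing enzyme, read 12.62 and 12.55 on the DND41 NBD arrays, against 12.89 and 12.88 on the control arrays. Its difference was -0.39 ± 0.06 (limma, adjusted p = 0.0171). With single arrays left out the ATF4 list had 2 to 5 calls, with 2 without DND41 control array 1 and 3 without CEM control array 2, DND41 NBD array 2 or either HPB-ALL NBD array. The NRF2 list had 1 to 3, with 1 without either DND41 control array, DND41 NBD array 2 or HPB-ALL NBD array 2. It had 2 without CEM control array 2, either CEM NBD array, either HPB-ALL control array or HPB-ALL NBD array 1. PRDX1 itself was not called without either DND41 control array, DND41 NBD array 2 or HPB-ALL NBD array 2 (adjusted p up to 0.101).

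Beside this list and that of T-ALL transcription factors further on, 1.04% of all genes were called higher and 0.9% lower. In the MYC and ribosome biogenesis list 1 of 42 members was called higher (MXI1, a MYC antagonist) and 2 lower (NME1, a nucleoside diphosphate kinase, and RRS1, a ribosome assembly factor). Without DND41 control array 1 or DND41 NBD array 2 none of the 3 was called (limma, adjusted p up to 0.122 for MXI1, 0.119 for NME1 and 0.0872 for RRS1). MXI1 was also lost without any of 7 further arrays and NME1 without any of 8. The median difference of this list was -0.14, with 35 of 42 members below 0, beside 6635 of all 13111 genes. The DND41 effect itself was called lower for 10 members and higher for 1, beside 3.08% and 1.66% of all genes. MYC itself read 8.52 and 8.71 on the DND41 NBD arrays, against 9.65 and 9.65 on the control arrays. CEM gave 5.96 and 5.56 with NBD peptide, against 6.05 and 6.43 with control peptide. HPB-ALL gave 8.41 and 8.33 with NBD peptide, against 8.57 and 8.64 with control peptide. MYC fell 2.05-fold in DND41 (limma, adjusted p = 0.00938) with effects of -0.48 in CEM and -0.23 in HPB-ALL, but the DND41 difference of -0.68 ± 0.18 was not called (adjusted p = 0.0977). T-ALL transcription factors had 3 of 10 members called higher (MYB, LEF1, HHEX) and 0 lower, and 1 without CEM control array 2, either DND41 control array, DND41 NBD array 2 or either HPB-ALL NBD array. HHEX, a homeobox factor of progenitors, differed by 0.60 ± 0.12 (adjusted p = 0.0466), lost its call without 10 of the 12 arrays (adjusted p up to 0.178) and had another probe set at 0.07.

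The NBD peptide addresses the IKK complex. Of 36 tested NF-κB target genes 1 was called lower (LTB, the lymphotoxin subunit, -0.62 ± 0.11, limma adjusted p = 0.0369) and 0 higher, and of 28 IKK and NF-κB components 0 were called, beside 1.94% of all genes, so these counts are near the background. LTB lost its call without 10 of the 12 arrays (adjusted p up to 0.15). NFKBIA, which encodes IκBα, read 10.31 and 10.34 on the DND41 NBD arrays, against 9.81 and 9.84 on the control arrays. It rose by 0.50 in DND41 and 0.50 in CEM, with 0.16 in HPB-ALL, and its difference of 0.18 ± 0.08 was not called (adjusted p = 0.26). TNFAIP3, the ubiquitin-editing enzyme A20, differed by 0.15 ± 0.07 (adjusted p = 0.283) and CYLD by 0.02 ± 0.13 (adjusted p = 0.952). The Notch list had 1 of 29 members called lower (CD300A) and 0 higher, beside 1.94% of all genes called, so its counts too are near the background. HES1 was at 10.25 and 10.10 with NBD peptide in DND41, against 11.20 and 11.21 with control peptide. HES1 fell by 1.03 in DND41 and 0.73 in HPB-ALL, with -0.39 in CEM, and its difference of -0.48 ± 0.13 was not called (adjusted p = 0.0932). Over all genes tested 1.04% were called higher and 0.9% lower. Over the 34 lists together, with each of 742 tested genes counted once, 13 genes were called higher and 50 lower. Without DND41 control array 1 these were 8 and 15, without DND41 control array 2 9 and 22, without DND41 NBD array 2 9 and 19, without HPB-ALL NBD array 2 9 and 24, and without CEM control array 2 9 and 30. Without HPB-ALL control array 2 the lower count was 33.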

How the data were processed

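Expression was measured on Affymetrix arrays. Per the labels' protocols, the input was 20 ng of total RNA, taken through 2 cycles of amplification and labelled with biotin. The values deposited by the authors are intensities on a linear scale, and per the submitters' processing notes the authors used RMA, whose version and settings are not given in the sources used here. RMA shrinks spread at low signal, and the number of arrays limits the precision.

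Intensities were taken to log2 with no pseudocount. Of 54675 probe sets, 41097 carry 1 gene symbol, 1801 several and 11777 none, by the platform annotation, with symbols updated through RefSeq. A gene is its probe set of highest mean over the 12 arrays, and 13111 of 19775 genes passed the filter of log2 4.95 (intensity 30.86) on at least 2 arrays. limma 3.58.1 in R 4.3.3 (lmFit, eBayes) was fitted with 1 mean per group on 12 arrays (6 residual and 2.72 prior degrees of freedom), with Benjamini-Hochberg adjustment over all genes. T-ALL1 and KOPT-K, whose columns have another number of decimals and higher mean intensities (386.9 to 396.1, against 341 to 347.7), were fitted apart. In simulated data for the DND41 difference over 13111 genes, 53% of 100 genes changed by 0.5 log2 and 94% of 100 changed by 1 were recovered, with 8 unchanged genes called. The simulated noise was normal, with limma's estimated spread for each gene, and independent between genes and arrays. These rates therefore do not cover shifts shared by the genes of an array.

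Named genes were the 8 largest called differences in each direction, up to 6 per direction of the opposite and of the DND41-restricted class, up to 4 per direction of the shared class, up to 3 called members of each list by lowest p, and always NFKBIA, TNFAIP3, CYLD, HES1, JUN, ID3 and MYC. A few others are named as list members, for a threshold or a marker check. Genes used to tell sex were left out. Members, lists and tests were chosen with earlier results of these data known. Alternatives were other normalizations, filters, probe set rules, a pseudocount of 16, a trended robust prior, the actin gap as a covariate, the replicate number as a block, all 20 arrays in 1 fit, and leaving out each array. The leave-one-out fits of T-ALL1 and KOPT-K were added after seeing the data.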

Additional observations from a re-analysis of the deposited data

Results flagged for a closer look

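For 66 named genes the NBD effect differed between DND41 and the mean of CEM and HPB-ALL by the limma test of that difference (adjusted p below 0.05 over 13111 genes). Values below are log2 differences, DND41 minus the other lines. The call held for 28 of them whichever 1 array was left out, and the other 38 lost it without DND41 control array 1, most of them without further arrays too.

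In the opposite class they were -3.11 for EGR1, -0.862 for GADD45A, -0.518 for DNAJA1 and -0.51 for CD70 on the lower side. On the higher side they were 1.166 for ARPP21, 1.126 for MME, 0.91 for ABLIM1, 0.893 for H2AC6, 0.892 for MYB and 0.849 for P2RY8.

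Among DND41-restricted genes the lower values were -1.512 for KLF10, -1.262 for CD79A, -1.223 for MMRN1, -1.098 for IER2, -1.012 for PALD1, -0.993 for GALNT6, -0.891 for TRIB3, -0.698 for PKM, -0.629 for SLC7A11, -0.61 for SLC7A5, -0.485 for LAT and -0.461 for PSMD14. The higher values were 0.932 for VANGL2, 0.886 for PIK3IP1, 0.858 for HHIP-AS1, 0.812 for DNTT, 0.81 for RASGRP1, 0.764 for ST3GAL5, 0.716 for TXNIP and 0.565 for CASP6.

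Genes shared by CEM and HPB-ALL gave -1.32 for MT1F, -0.811 for MT1E, -0.523 for HMGCS1, -0.408 for MASP2, 1.479 for ID1, 0.818 for CD84, 0.746 for IKZF2 and 0.547 for TMT1A. Genes with one direction but another size gave -1.246 for CXXC5, -1.086 for MT1G, -1.031 for CD300A, -0.413 for SASH3 and 0.876 for DUSP16. Genes called in a single other line gave -0.556 for MSMO1, -0.442 for SPRED2, -0.354 for SQLE, 0.401 for STAT5B, 0.415 for LEF1 and 1.033 for SLC8A1-AS1.

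The genes that met no class rule gave -1.233 for PLXND1, -0.669 for CHORDC1, -0.615 for LTB, -0.522 for NME1, -0.496 for ENO1, -0.462 for PSMB2, -0.454 for PSMA3, -0.443 for SQSTM1, -0.438 for RRS1, -0.438 for STIP1, -0.39 for PRDX1, -0.364 for MANF, -0.317 for TXNRD1 and -0.311 for FEN1. On the higher side they gave 0.445 for MXI1, 0.603 for HHEX and 1.032 for RAG1. PLXND1, a semaphorin receptor, was not called without 10 of the 12 arrays (limma, adjusted p up to 0.149), and its other probe sets gave 0.04 and, called, -0.93. STAT5B, a cytokine signal transducer, had 4 other probe sets, at 0.25, -0.04, -0.19 and -0.20, none called. SQLE, TXNRD1 and FEN1 lost their call whichever of the 12 arrays was left out, and SASH3 and MANF without any of 11.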

How the results depend on the processing

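Of the 66 named genes called, 28 stayed called whichever 1 array was left out, 1 (EGR1) under every alternative, and 0 changed sign. Leaving out 1 array gave 30 to 176 higher and 28 to 123 lower genes for the DND41 difference, 44 to 373 against CEM, 32 to 117 against HPB-ALL, 81 to 663 in DND41, 47 to 452 in CEM, 31 to 174 in HPB-ALL, 1 to 1363 in T-ALL1 and 1 to 34 in KOPT-K. It gave 1 to 23 opposite, 9 to 49 restricted and 5 to 15 shared genes, and 8 to 19 higher and 15 to 43 lower list members. In the order higher, lower, against CEM, against HPB-ALL, DND41, CEM, HPB-ALL, opposite, restricted, the fit without a filter gave 66, 55, 61, 69, 269, 111, 60, 8 and 15 genes, with 28 lower list members. In the same order the replicate block gave 13, 18, 9, 7, 104, 42, 16, 3 and 2, with 6 higher and 12 lower list members. The trended robust prior gave 413, 436, 932, 472, 1343, 871, 459, 55 and 146, with 38 shared genes and 34 higher and 117 lower list members. The actin covariate gave 0, 1, 1, 75, 45, 5, 68, 1 and 0, with 0 shared genes, 0 higher and 1 lower list members, and a median of 0.041 for the immediate-early list, whose sign it turned. In this fit 242 of the 255 genes had an unadjusted limma p below 0.05. Those 255 were chosen by the same contrast on the same arrays, so this count is no separate support. All 20 arrays in 1 fit gave 72 higher, 68 lower, 144 against CEM, 355 in DND41, 152 in CEM, 115 in HPB-ALL, 10 opposite and 19 restricted genes. The filter on all 12 arrays gave 13 shared genes and 21 higher list members. The mean of probe sets gave 95 genes in HPB-ALL, 5 shared genes and 8 higher list members. The pseudocount gave 417 genes against CEM and 20 higher list members. The cause of these shifts was not tested. The labels do not say whether same-numbered arrays belong together. Deviations of same-numbered arrays correlated at 0.157 in DND41, -0.045 in CEM and -0.097 in HPB-ALL, which with 2 arrays a group cannot decide it. The block left 3 residual degrees of freedom. With 2 arrays a group and signals near the filter, small differences of dim genes were not detectable.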

Other observations

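The clustered histone genes, a set chosen after its values were seen and so given with no test, leaned to the higher side. Of 31 tested, 6 were called with a higher DND41 difference, beside 1.04% of all genes, and 0 with a lower one, beside 0.9%. The difference was above 0 for 22, beside 6476 of all 13111 genes, and the median was 0.30. The called genes were H2AC6 (0.89), H4C8 (0.86), H2BC5 (0.57), H1-2 (0.53), H2BC15 (0.51) and H2BC9 (0.41). H1-2 encodes a linker histone and the others core histones of the nucleosome. Median NBD effects were 0.24 in DND41, 0.11 in CEM and -0.19 in HPB-ALL. Of the 31 probe sets, 10 are of a type that can detect several related transcripts.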
